A study of Mus musculus with 114 samples.

Results

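Immediate early genes are genes whose mRNA appears within minutes of a stimulus without new protein synthesis. Serum response factor and CREB at their promoters take up signals from the MAP kinases and from cAMP. Many of the products are transcription factors, and the mRNAs are short-lived. The same genes are also known to be induced while tissue is minced and digested with collagenase, the enzyme used here to release adipocytes from fat.

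The 10 genes described here were Fos, Fosb, Jun, Junb, Jund, Egr1, Ier2, Ier3, Atf3 and Zfp36, chosen by symbol from 29132 genes in the expression values. All 10 had a row and all 10 passed the filter on low values. FOS, FOSB, JUN, JUNB and JUND are subunits of AP-1, in which a FOS protein pairs with a JUN protein. EGR1 is a zinc finger transcription factor and ATF3 a stress-induced bZIP factor related to AP-1. IER2 and IER3 are small early response proteins, and ZFP36 (tristetraprolin) binds AU-rich mRNAs and promotes their decay.

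The RNA came from adipocytes of the perigonadal fat pad of male C57BL/6J mice that received chow (CD) or a high fat diet (HFD) from 6 weeks of age. The diets were given for 8, 20 or 34 weeks to 6 CD and 6 HFD mice at 8 weeks, 6 and 6 at 20 weeks, and 8 and 6 at 34 weeks, all without genetic modification. Mice at later times were therefore also older, and the mice of each time were collected at the end of that time. Duration, age and harvest session cannot be told apart in any comparison between times. All 38 fat pads were minced and digested with collagenase, so levels set in the animal and levels set during isolation cannot be told apart for any mouse.

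Each mouse has 3 technical replicates in the labels (114 samples), which the authors merged into 1 value per mouse, so that n counts mice. Between 9275711 and 15480388 reads fell on genes per mouse, and 1 read equals 0.0646 to 0.108 CPM, the unit of the values, which gives each mouse's reads as if its total were 1000000. At 8 weeks depth differed between the diets without overlap (10562845 to 12611013 reads in CD, 13201234 to 15480388 in HFD). Depth at 34 weeks also lay below that at 20 weeks without overlap in each diet. CD mice had 13091365 to 14292115 reads at 20 weeks and 9275711 to 12433584 at 34 weeks. HFD mice had 13159018 to 14961360 and 10714545 to 12271651. The adipocyte markers Adipoq and Plin1 were present in every mouse, at no less than 2068 and 666 CPM. The macrophage markers Cd68 and Csf1r were also present in every group, with higher means in HFD than in CD mice at each time, and the T cell marker Cd3e was at or near 0. In such bulk RNA, more macrophages and more of a transcript per cell cannot be told apart.

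Of the 10 genes, 8 have a promoter entry in RefSeq (GRCm38.p6, the build of the files, mm10), running from 250 bases before the start site to 50 after it. The entry of Jund ends before the start of the gene in GENCODE M21 and is not printed. The promoters of Fos and Junb, which were higher in HFD mice at 8 and 20 weeks, and those of Fosb and Ier3, which were lower, are printed so that genes of opposite direction can be compared. They lie at chr12:85473640-85473939 (Fos, plus strand), chr8:84978699-84978998 (Junb, minus strand), chr7:19309996-19310295 (Fosb, minus strand) and chr17:35821463-35821762 (Ier3, plus strand). Capitals mark matches to the motifs described after them.
Fos: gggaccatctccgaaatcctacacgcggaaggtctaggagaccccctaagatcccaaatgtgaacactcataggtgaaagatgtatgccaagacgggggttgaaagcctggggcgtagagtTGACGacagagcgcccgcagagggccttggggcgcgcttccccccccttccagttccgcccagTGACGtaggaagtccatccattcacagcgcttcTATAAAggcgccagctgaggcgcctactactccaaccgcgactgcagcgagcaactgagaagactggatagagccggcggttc
Junb: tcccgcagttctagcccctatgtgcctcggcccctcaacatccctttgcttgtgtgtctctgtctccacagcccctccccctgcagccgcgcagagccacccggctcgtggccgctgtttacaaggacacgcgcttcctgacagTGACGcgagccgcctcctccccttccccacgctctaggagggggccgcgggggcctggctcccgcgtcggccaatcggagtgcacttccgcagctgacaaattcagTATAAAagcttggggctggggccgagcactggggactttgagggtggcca
Fosb: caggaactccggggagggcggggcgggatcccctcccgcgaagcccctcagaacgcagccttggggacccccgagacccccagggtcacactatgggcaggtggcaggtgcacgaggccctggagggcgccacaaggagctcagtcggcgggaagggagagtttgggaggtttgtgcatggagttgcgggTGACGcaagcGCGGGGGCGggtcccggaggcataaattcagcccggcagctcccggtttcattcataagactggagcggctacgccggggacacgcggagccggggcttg
Ier3: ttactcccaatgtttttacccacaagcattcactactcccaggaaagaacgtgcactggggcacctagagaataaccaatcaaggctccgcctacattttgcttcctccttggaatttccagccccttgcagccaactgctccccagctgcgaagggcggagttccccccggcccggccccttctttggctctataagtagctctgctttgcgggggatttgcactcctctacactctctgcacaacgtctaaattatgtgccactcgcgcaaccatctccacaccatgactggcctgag

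The letters searched on both strands were the cAMP response element (CRE) TGACGTCA and its half-site TGACG, the AP-1 site TGACTCA, the EGR site GCGGGGGCG, the TATA box TATAAA and the CArG box of serum response factor. The half-site is part of the whole CRE, and every whole CRE is counted under both. Among all 32851 promoters of the table, 20.8% held the half-site, 1.79% the whole CRE, 5.20% the AP-1 site, 2.91% the EGR site, 13.6% the TATA box and 1.63% the CArG box. The half-site occurred at 129 and 66 bases before the start in Fos, at 106 in Junb and at 60 in Fosb, so both directions of change held it. Fosb also held an EGR site and Ier3 none of these letters. The TATA box letters began 33 bases before the start in Fos, but at base 1 of the start of the RefSeq entry in Junb. All these positions count from the RefSeq start. GENCODE M21 starts Junb at base 84978718 on the minus strand, inside the printed entry and after these letters. Of the promoters not printed, that of Zfp36 held a CArG box and an EGR site and that of Atf3 a half-site. A match is a description of letters and not a bound site.

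In the main fit, the isolated adipocyte fraction of HFD mice held more Fos and Junb than that of CD mice at 8 and 20 weeks. It held less Fosb and Ier3 at these times, and these diet differences were not called at 34 weeks. The genes did not move as a block. At 8 weeks Fos, Junb and Ier2 rose and Fosb, Jund, Ier3 and Atf3 fell, so 7 of 10 were called, where 44.9% of all genes tested were called. Of all genes 29.8% were called higher and 15.1% lower. Calls are from limma across all genes with Benjamini-Hochberg adjusted p under 0.05, and fold changes are on the log2(CPM + 1) scale. At 20 weeks Fos, Junb and Ier2 again rose and Fosb, Jund and Ier3 fell, 6 of 10 against 57.0% of all genes (38.3% higher, 18.7% lower). At 34 weeks none was called higher, against 27.5% of all genes. Jun and Ier2 were lower, 2 of 10 against 43.2% of all genes in either direction and 15.7% lower. In this fit the share called was above that of all genes at 8 weeks, near it at 20 weeks and below it at 34 weeks. Without 1 mouse the counts ran from 4 to 7, 5 to 6 and 1 to 3, and the shares of 10 genes are not read as a result. Of all genes called, 66.3%, 67.1% and 63.6% were higher in HFD at the 3 times, and 49.9%, 46.4% and 50.4% after TMM scaling, which moves the reference level of all genes. The median log2 fold change of the 10 genes was -0.11, 0.08 and -0.12 at 8, 20 and 34 weeks, beside 0.11, 0.14 and 0.07 over all genes tested (0.00, -0.05 and -0.01 after TMM scaling).

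**Figure D1:**
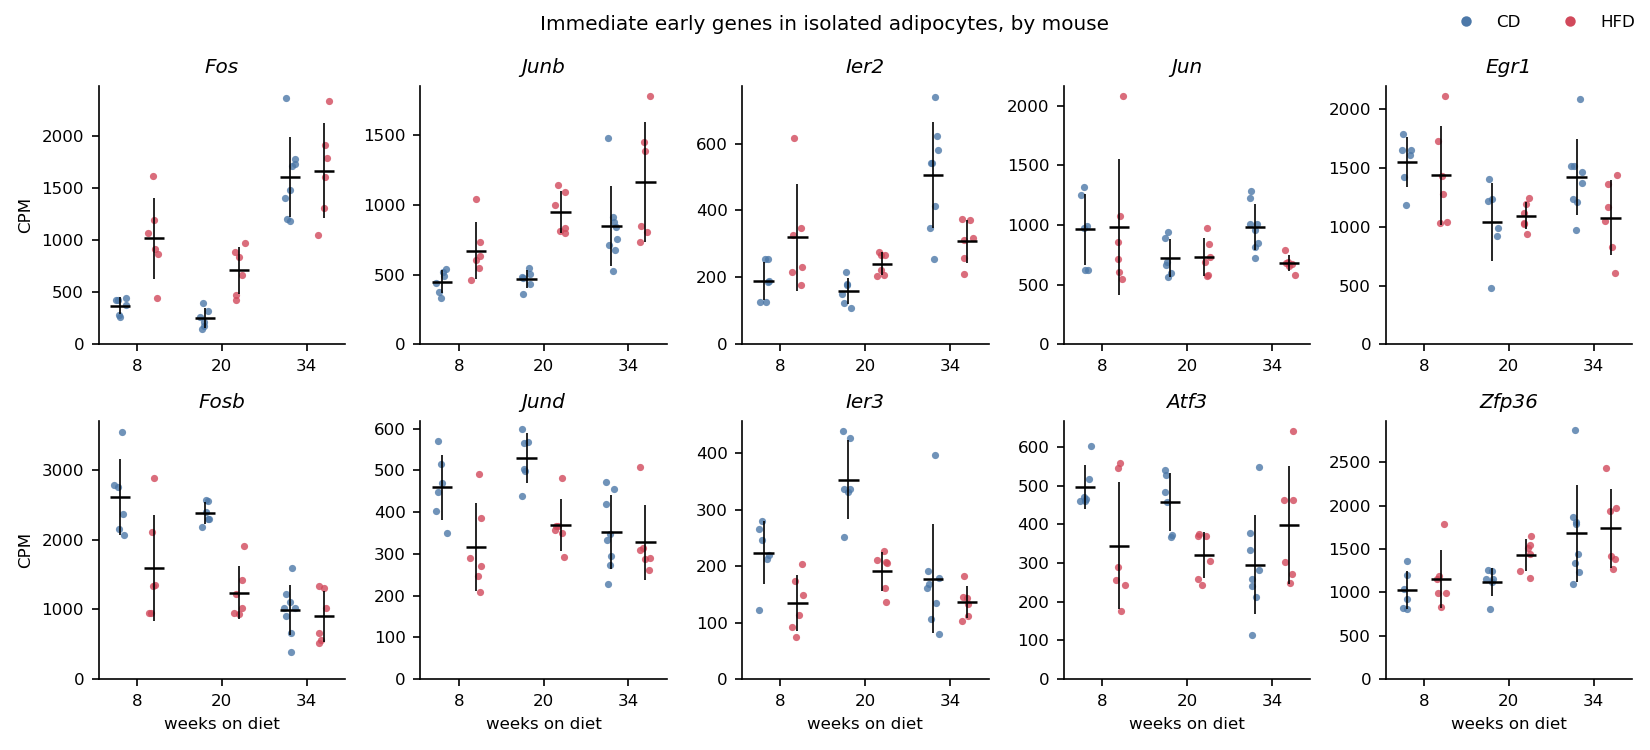
Level of each immediate early gene in CPM (y axis, linear, from 0) by weeks on diet (x axis), with 1 point per mouse, CD in blue and HFD in red, a bar at the mean and a line of 1 SD either side (n = 6 per group, 8 for CD at 34 weeks). Fos is lowest in CD mice at 20 weeks (149 to 399 CPM) and highest at 34 weeks in both diets, whereas Fosb has its lowest means at 34 weeks in both diets.

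Fos, the AP-1 subunit that is the standard mark of recent stimulation, ranged in CD mice at 8 weeks from 261 to 444 CPM with a median of 401. In HFD mice it ranged from 441 to 1619 with a median of 989.7. At 8 weeks 5 of 6 HFD mice lay above every CD mouse, and the lowest HFD mouse lay just inside the CD range. At 20 weeks CD mice lay between 149 and 399 (median 242) and HFD mice between 428 and 978 (median 750.1), without overlap. At 34 weeks the range was 1185 to 2374 (median 1598) in CD and 1056 to 2340.2 (median 1700.1) in HFD mice, which overlapped almost entirely. The log2 fold change was 1.39 (standard error 0.26, adjusted p = 9.56e-05, limma) at 8 weeks, 1.49 (0.26, adjusted p = 1.23e-05) at 20 weeks and 0.04 (0.24, adjusted p = 0.907) at 34 weeks. The first and second correspond to 2.62-fold and 2.82-fold. In order of their means the groups ran CD 20, CD 8, HFD 20, HFD 8, CD 34 and HFD 34 weeks. Every neighbouring pair in this order had overlapping ranges.

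Fosb, its close relative in AP-1, moved the opposite way. In CD mice Fosb ranged from 2059.9 to 3545 CPM (median 2563) at 8 weeks and from 2175 to 2573 (median 2345) at 20 weeks. In HFD mice it ranged from 944 to 2887 (median 1339) and from 931 to 1905 (median 1118). All 6 HFD mice lay below all CD mice at 20 weeks and 4 of 6 did so at 8 weeks. At 34 weeks both diets were low, at 388 to 1586 (median 1016) in CD and 518 to 1328 (median 834) in HFD mice. On the log2 scale HFD differed from CD by -0.81 (standard error 0.28, adjusted p = 0.0179, limma), -0.99 (0.28, adjusted p = 0.00303) and -0.14 (0.26, adjusted p = 0.680). At 8 weeks the call was lost without HFD replicate 3 or 4, with an adjusted p of up to 0.0593.

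The ratio of Fos to Fosb CPM within a mouse, which was chosen after the values were seen and is given with no test, put these movements together. Its median was 0.141 in CD and 0.730 in HFD mice at 8 weeks, 0.102 and 0.663 at 20 weeks, and 1.48 and 1.93 at 34 weeks. At 8 and 20 weeks no HFD mouse reached down to the highest CD mouse (0.187 and 0.157 in CD, at least 0.328 and 0.248 in HFD). At 34 weeks the lowest ratio was 0.991 in CD mice, above every CD mouse of the earlier times, and the diets overlapped.

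**Figure D2:**
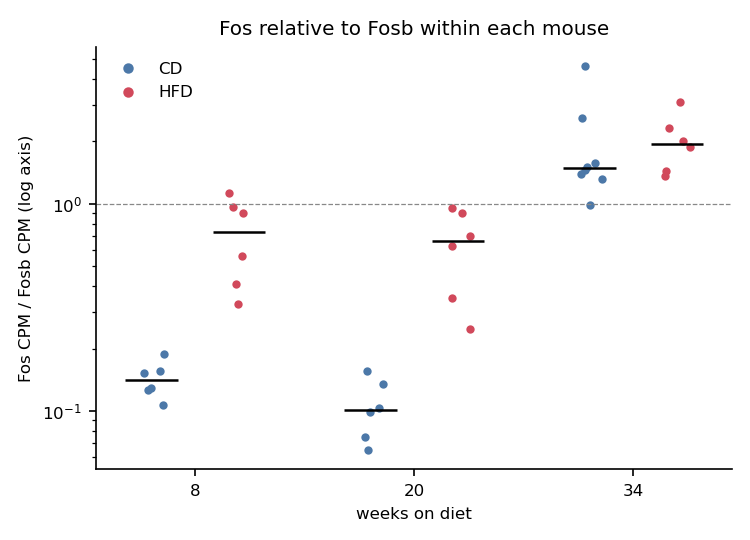
Ratio of Fos CPM to Fosb CPM in each mouse (y axis, log scale) by weeks on diet (x axis), CD in blue and HFD in red, with a bar at the group median and a dashed line at a ratio of 1. The CD medians are 0.141, 0.102 and 1.48 and the HFD medians 0.730, 0.663 and 1.93 at 8, 20 and 34 weeks.

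Junb, a JUN partner known to be a weaker activator than JUN, was higher with HFD at 8 and 20 weeks. In CD mice it ranged from 335 to 544 CPM (median 464) at 8 weeks and from 363 to 548 (median 479) at 20 weeks. HFD mice held 462 to 1044 (median 619.7) and 802 to 1146 (median 920.1), and did not overlap with CD at 20 weeks. At 34 weeks CD mice ranged from 524 to 1483 (median 802) and HFD mice from 732 to 1783 (median 1119.9). On the log2 scale HFD exceeded CD by 0.55 (standard error 0.21, adjusted p = 0.0322, limma), 1.02 (0.21, adjusted p = 1.13e-04) and 0.44 (0.20, adjusted p = 0.0678). At 8 weeks Junb was not called in 5 of the alternatives, among them both other scalings and edgeR, with an adjusted p of up to 0.361. It was also lost without CD replicate 1 or 6 or HFD replicate 2 or 6. Prdx2 lies on the opposite strand and shares 351 bases with Junb. Whether the counting used strand is not given in the sources used here.

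Jund, the JUN member that is expressed more steadily and is less inducible, was lower with HFD at the same times. It ranged from 349 to 570.1 CPM (median 459) in CD and from 208 to 492 (median 280.3) in HFD mice at 8 weeks. At 20 weeks the ranges were 438 to 599 (median 535) and 292 to 480.5 (median 362). At each time some mice of the diets overlapped, with 4 of 6 HFD mice below every CD mouse at 8 weeks and 5 of 6 at 20 weeks. Jund differed by -0.58 on the log2 scale (standard error 0.18, adjusted p = 0.00956, limma) and -0.53 (0.18, adjusted p = 0.0131). At 34 weeks Jund was at 353 ± 88.6 CPM (SD, n = 8) in CD and 328 ± 89.5 (n = 6) in HFD mice and was not called. An antisense gene, Gm11175, shares 919 bases with Jund.

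Jun, the founding member of the family, was not called between the diets at 8 or 20 weeks. The 95% interval of its log2 fold change, without adjustment, ran from -0.53 to 0.39 at 8 weeks and from -0.44 to 0.48 at 20 weeks. At 34 weeks CD mice ranged from 725 to 1283 CPM (median 985) and HFD mice from 581 to 789.7 (median 676), with 5 of 6 HFD mice below every CD mouse. The log2 fold change was -0.52 (standard error 0.21, adjusted p = 0.0449, limma). This call lay at the threshold and was lost in 10 of the fits that left out 1 mouse (CD replicate 1, 2, 3, 5 or 6, or HFD replicate 1, 2, 3, 5 or 6), with an adjusted p of up to 0.0882. It was also lost with no filter, array weights, the macrophage covariate and the heat shock covariate, with an adjusted p of up to 0.218. An exact permutation test of the 34 week mice alone, two-sided and unadjusted, gave p = 0.00133.

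Ier2 changed direction over time. It ranged from 126 to 256 CPM (median 187) in CD and from 178 to 617 (median 279) in HFD mice at 8 weeks, and from 108 to 215 (median 162) and 203 to 277 (median 244) at 20 weeks. At 34 weeks CD mice had risen to between 256 and 740.4 (median 543), while HFD mice lay between 210.5 and 375 (median 316). The diets overlapped at each time. For Ier2 the log2 fold change was 0.68 (standard error 0.25, adjusted p = 0.0247, limma), 0.62 (0.25, adjusted p = 0.0312) and -0.67 (0.23, adjusted p = 0.0181). With TMM or median-of-ratios scaling, or with the macrophage covariate, the 8 and 20 week differences were not called (adjusted p up to 0.0701 and 0.182). The 20 week call was lost with edgeR and DESeq2 as well, and the 8 week call when each time was fitted separately. The 8 week call was also lost without CD replicate 1 or 6 or HFD replicate 2 (adjusted p up to 0.0970) and in the exact permutation test, two-sided (p = 0.0563), and the 20 week call without CD replicate 3 or 4 or HFD replicate 1, 5 or 6 (adjusted p up to 0.0882). Without HFD replicate 5 the 34 week call was lost, with an adjusted p of 0.0568, and with the macrophage covariate it was lost at 0.0613.

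Ier3, an early response gene linked to survival signalling, was lower with HFD at 8 and 20 weeks. CD mice held 122 to 279 CPM (median 233) at 8 weeks and 252 to 439 (median 336) at 20 weeks. HFD mice held 74.5 to 203 (median 132) and 136 to 226 (median 206), without overlap at 20 weeks. In log2 terms Ier3 changed by -0.77 (standard error 0.26, adjusted p = 0.0159, limma) and -0.88 (0.26, adjusted p = 0.00429). At 8 weeks the call was lost without HFD replicate 3, with an adjusted p of 0.0617. At 34 weeks Ier3 was at 177 ± 96.5 CPM (SD, n = 8) in CD and 136 ± 28.3 (n = 6) in HFD mice and was not called.

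Atf3, which is induced by cell stress, was at 459.9 to 602 CPM (median 468) in CD and 175 to 559 (median 274) in HFD mice at 8 weeks. In HFD mice 4 lay below every CD mouse and the other two inside the CD range. The difference of -0.65 on the log2 scale (standard error 0.27, adjusted p = 0.0491, limma) lay at the threshold, and the call was lost in 30 of the 38 fits that left out 1 mouse and in 6 other alternatives. The exact permutation test, two-sided, gave p = 0.0541. At 20 weeks Atf3 was at 458 ± 74.1 CPM (SD, n = 6) in CD and 320.1 ± 59.6 (n = 6) in HFD mice, and at 34 weeks at 296 ± 129 (n = 8) and 397 ± 152 (n = 6). Neither difference was called by limma. The exact permutation test, unadjusted, gave p = 0.0152 at 20 weeks and 0.182 at 34 weeks.

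Egr1 and Zfp36 were not called between the diets by limma at any time. Egr1 lay between 475 and 2116 CPM over all mice, and its group means ran from 1042 in CD mice at 20 weeks to 1552 in CD mice at 8 weeks. The 95% interval of its diet difference was -0.58 to 0.29 at 8 weeks, -0.29 to 0.58 at 20 weeks and -0.84 to -0.03 at 34 weeks, all on the log2 scale and unadjusted. Zfp36 ran from 1024 ± 220.4 CPM (SD, n = 6) in CD mice at 8 weeks to 1739 ± 454 (n = 6) in HFD mice at 34 weeks. Its intervals were -0.24 to 0.55, -0.04 to 0.74 and -0.30 to 0.44, so a difference of the size seen in Junb at 20 weeks lay outside each of them. For Zfp36 at 20 weeks 4 of 6 HFD mice lay above every CD mouse. An exact permutation test of the 20 week mice alone, two-sided and unadjusted, gave p = 0.0108 for Zfp36 and 0.703 for Egr1.

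**Figure D3:**
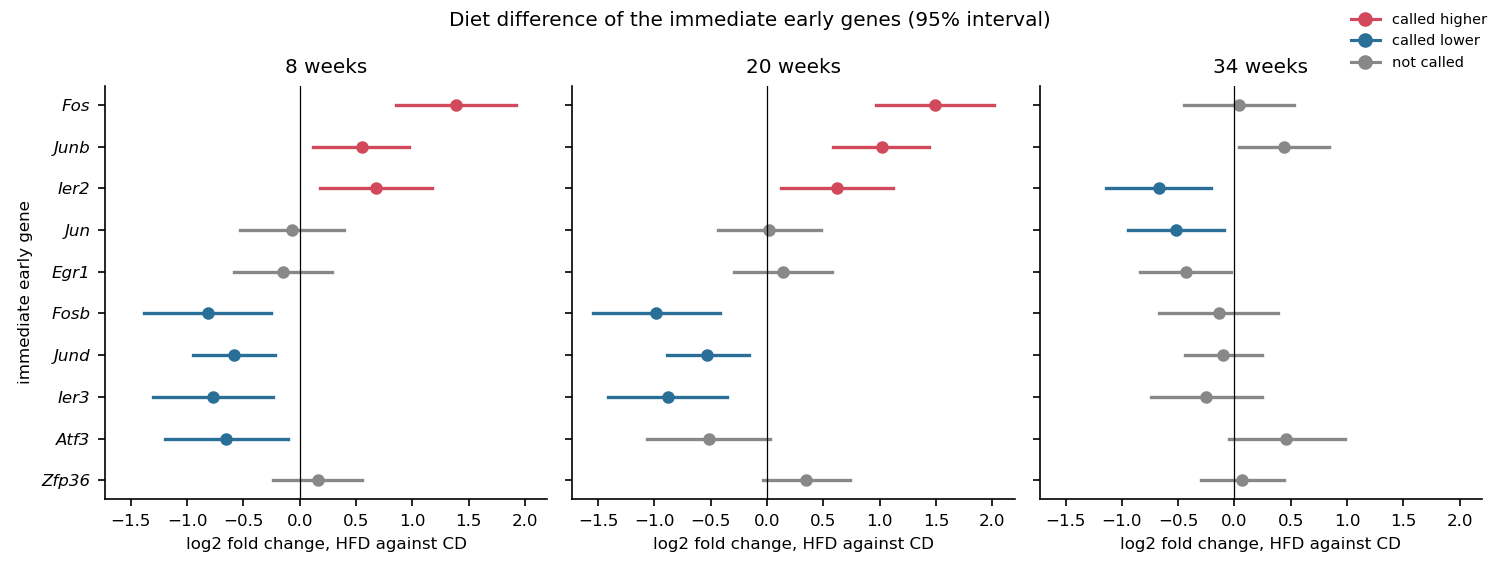
Log2 fold change of HFD against CD (x axis, log2(CPM + 1) scale) for each immediate early gene at 8, 20 and 34 weeks, with points for the estimate and lines for the unadjusted 95% interval. Red and blue mark genes called higher and lower, and grey those not called, and the Fos estimates are 1.39, 1.49 and 0.04.

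The diets did not overlap in 22.8% of all genes tested at 8 weeks, 37.2% at 20 weeks and 2.46% at 34 weeks. Of the 10 genes 0, 4 and 0 were without overlap at these times, namely Fos and Junb above and Fosb and Ier3 below at 20 weeks.

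Whether the diet difference itself changed with time was tested as an interaction. None of the 10 genes was called between 20 and 8 weeks, where 4.49% of all genes were. Between 34 and 20 weeks 2 of 10 were called, against 10.5% of all genes. The diet difference of Fos changed by -1.45 on the log2 scale, from higher with HFD at 20 weeks to 0.04 at 34 (standard error 0.35, adjusted p = 0.00850, limma) and that of Ier2 by -1.30 (0.34, adjusted p = 0.0129). Only Ier2 of these turned from called higher to called lower in the main fit, and its 20 week call was lost in 5 alternatives. Between 34 and 8 weeks 3 of 10 were called, against 28.8% of all genes. These were Fos at -1.35 (0.35, adjusted p = 0.00475), Ier2 at -1.35 (0.34, adjusted p = 0.00321) and Atf3 at 1.11 (0.37, adjusted p = 0.0229). Without HFD 8 week replicate 3 the Atf3 value had an adjusted p of 0.0528. The diet differences of Fosb, Junb, Jund and Ier3 were called at the early times and not at 34 weeks, but the change with time was not called for any of the 4. Both interactions with 34 weeks use the same 34 week mice.

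In CD mice most of these genes were called between 34 weeks and the earlier times, as were most of all genes tested. Between 20 and 8 weeks none of the 10 genes was called in CD mice by limma, with 3.58% of all genes called. The largest estimates were 0.68 for Ier3 (unadjusted p = 0.0126), -0.64 for Egr1 (0.00507) and -0.59 for Fos (0.0301), the 3 with an unadjusted p under 0.05, and array weights called 3 of the 10, DESeq2 0 and edgeR 0. Between 34 and 20 weeks 9 of 10 were called, with 62.5% of all genes called. Fos rose by 2.71 on the log2 scale (standard error 0.24, adjusted p = 8.55e-11, limma), which is 6.53-fold, and Ier2 by 1.63 (0.23, adjusted p = 4.59e-07). Junb, Zfp36 and Egr1 also rose, by 0.81, 0.54 and 0.50. Fosb fell by 1.37 (0.26, adjusted p = 3.72e-05), Ier3 by 1.12, Atf3 by 0.74 and Jund by 0.62. The Egr1 call was lost in 6 alternatives and without CD 20 week replicate 3 or 4 or CD 34 week replicate 5 (adjusted p up to 0.173). Zfp36 lost its call with TMM scaling (0.39, adjusted p = 0.0519) and with the macrophage covariate (0.31, adjusted p = 0.103), and Atf3 with the heat shock covariate (-0.36, adjusted p = 0.228). Between 34 and 8 weeks 7 of 10 were called, with 64.7% of all genes called. Fos, Ier2, Junb and Zfp36 were higher by 2.12, 1.40, 0.88 and 0.68, and Fosb, Atf3 and Jund lower at -1.48, -0.86 and -0.40. The Jund call (adjusted p = 0.0366) was lost in 4 alternatives and without CD 8 week replicate 2, 3, 4 or 5 or CD 34 week replicate 1, 3, 7 or 8 (adjusted p up to 0.0979). The macrophage covariate ended the calls of Junb (0.35, adjusted p = 0.145) and Zfp36 (0.24, adjusted p = 0.300), and the heat shock covariate that of Atf3 (-0.25, adjusted p = 0.492).

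HFD mice showed fewer calls than CD mice in both comparisons with 34 weeks, but not between 20 and 8 weeks. The same held for all genes tested, so these counts are not read as a result about the 10 genes. Between 20 and 8 weeks 1 of 10 was called, Junb at 0.53 (standard error 0.21, adjusted p = 0.0439, limma), with 36.5% of all genes called. That call was lost in 6 alternatives, among them TMM scaling, edgeR and DESeq2, and without HFD 8 week replicate 1, 3, 4 or 5 or HFD 20 week replicate 1, 5 or 6 (adjusted p up to 0.110). Between 34 and 20 weeks only Fos was called among the 10, at 1.25 (0.26, adjusted p = 7.26e-04), with 30.2% of all genes called. Between 34 and 8 weeks 4 of 10 were called, with 52.5% of all genes called. Fos and Junb were both higher by 0.77 and Zfp36 by 0.59, and Fosb was lower at -0.81. All 4 calls were lost with the macrophage covariate, where Fos was at 0.22, Junb at 0.18, Zfp36 at 0.11 and Fosb at -0.99. The Fos call was also lost with array weights (0.41, adjusted p = 0.166) and the heat shock covariate (0.76, adjusted p = 0.0658), and the Fosb call with the latter (-0.57, adjusted p = 0.194). Without HFD 8 week replicate 5 the Fos call was lost (adjusted p = 0.0619), and without HFD 8 week replicate 2 that of Fosb (adjusted p = 0.0633).

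Levels of different genes are comparable only per length, for which the union of exons in GENCODE M21 was used. On the scale of mean CPM per kilobase, the order in CD mice at 8 weeks was Fosb (418), Egr1 (346), Jun (302), Zfp36 (295), Jund (275), Atf3 (230.4), Ier3 (198), Junb (196), Fos (157) and Ier2 (124). In HFD mice at 34 weeks it was Fos (710.4), Junb (508), Zfp36 (501), Egr1 (240.0), Jun (212), Ier2 (202), Jund (197), Atf3 (185), Fosb (144) and Ier3 (121). Fosb was thus first in one group and ninth in the other, and Fos ninth and first.

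Within a group, mice differed in these genes more than in most. The SD between mice of a group, on the log2(CPM + 1) scale, was 0.32 (Jund) to 0.50 (Fosb), where the median gene tested had 0.25, and 67.7% to 85.3% of genes tested had a lower SD. As a description across the 38 mice, with the group means removed, all 45 pairs of the 10 genes had a Pearson r above 0, with a median of 0.56, and 29 were above 0.5. All values of a mouse share its library and its isolation. The highest r was 0.92 between Junb and Zfp36. Fos ran with Junb (0.73), Zfp36 (0.72) and Ier2 (0.68), and little with Ier3 (0.13), Fosb (0.22) and Atf3 (0.26). Fosb ran with Atf3 (0.73), Egr1 (0.71) and Ier3 (0.69). Mice of a group that were high in Fos were therefore not generally those high in Fosb.

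**Figure D4:**
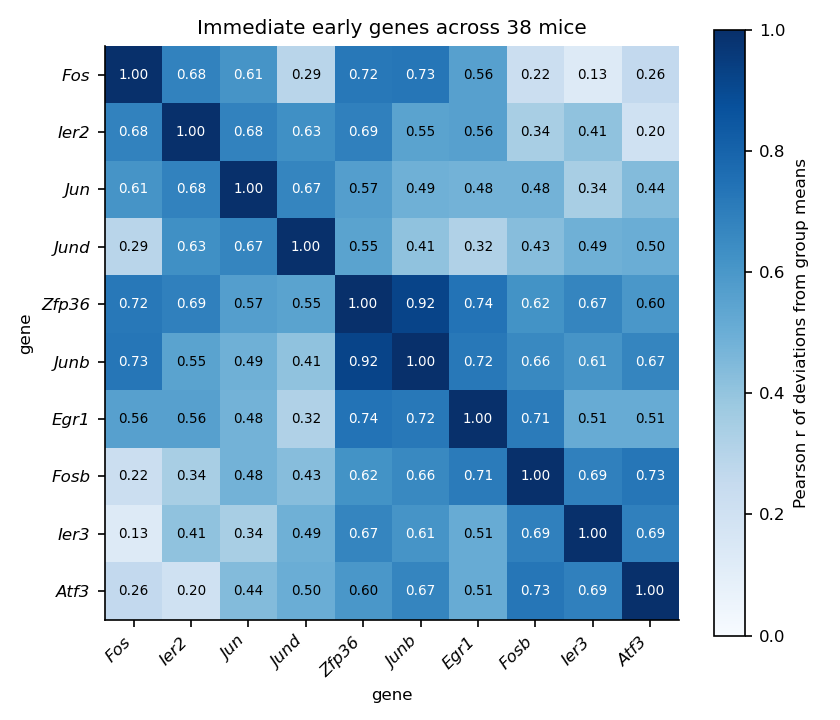
Pearson r between the 10 immediate early genes (both axes) over 38 mice, after the mean of each group was removed from log2(CPM + 1), with darker blue for a higher r and the value in each cell. Junb and Zfp36 have the highest r (0.92), and Fos has 0.22 with Fosb and 0.13 with Ier3.

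Outside the 10, the genes tested whose deviations were most like the mean of the 10 standardised deviations over the 38 mice were Btg2 (r = 0.80), Klf4 (0.76), Pnrc1 (0.76), Socs3 (0.73), Rela (0.70), Srsf5 (0.69), Csrnp1 (0.69), Nr4a1 (0.69), Inpp5k (0.69) and Zfp36l1 (0.69). Btg2, an antiproliferative early response gene, had a log2 fold change with HFD of 0.25, 0.32 and -0.52 at 8, 20 and 34 weeks and was not called at any of them (adjusted p = 0.385, 0.235 and 0.0503, limma). Nr4a1, an orphan nuclear receptor of the early response, was at 222 ± 48.6 CPM (n = 6) in CD and 463 ± 113 (n = 6) in HFD mice at 8 weeks. Its log2 fold change was 1.05 (adjusted p = 0.0121) at 8 weeks, 1.18 (adjusted p = 0.00351) at 20 weeks and -0.03 (adjusted p = 0.946) at 34 weeks.

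Other genes of the early response were also called in both directions. Of 41 other immediate early genes tested, 5 were higher and 9 lower with HFD at 8 weeks, 13 and 3 at 20 weeks, and 11 and 2 at 34 weeks. Their median log2 fold change was 0.02, 0.31 and 0.34. These and the counts of the other lists are to be read beside the 29.8%, 38.3% and 27.5% of all genes called higher and the 15.1%, 18.7% and 15.7% called lower, with a median over all genes of 0.11, 0.14 and 0.07. Among the genes called, the kinase Plk2 rose by 1.48 (adjusted p = 0.0269, limma), 2.28 (adjusted p = 6.47e-04) and 1.57 (adjusted p = 0.0131) at the 3 times. Irf1, an interferon-responsive factor, was lower at -1.48 (adjusted p = 9.81e-05) at 8 weeks, and Ptgs2, the inducible cyclooxygenase, higher by 2.35 (adjusted p = 0.00789) at 20 weeks. Of 18 other AP-1, ATF and MAF partners tested, 2, 5 and 4 were higher and 4, 1 and 1 lower at the 3 times, with a median log2 fold change of -0.15, 0.06 and 0.22. Some of these 18 were also counted among the 41. Batf rose by 0.99 (adjusted p = 0.00826, limma) at 8 weeks and the AP-1 repressor Jdp2 by 1.25 (adjusted p = 2.24e-04) at 20 weeks.

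Upstream of these genes, 4 genes of serum response factor and its ternary complex partners were tested. Elk3 was higher at all 3 times (1.32, 2.46 and 1.52), Elk4 lower at 8 and 20 weeks (-0.49 and -0.42) and Elk1 lower at 20 and 34 weeks (-0.29 and -0.25). Of 29 MAP kinase cascade genes tested, 9, 11 and 15 were higher and 5, 6 and 4 lower, with a median log2 fold change of -0.04, 0.15 and 0.19. The kinase genes Rps6ka2 and Rps6ka1, whose RSK products act downstream of ERK, rose by 2.12 and 2.10 at 20 weeks. Of 19 negative feedback genes, 5, 8 and 9 were higher and 5, 4 and 1 lower, with a median of -0.13, 0.20 and 0.26. The phosphatase genes Dusp2 and Dusp5, which switch off MAP kinases, rose by 3.34 (adjusted p = 6.97e-06) and 2.90 (adjusted p = 1.01e-05) at 20 weeks, and Spry1 by 1.37 at 8 weeks. Dusp4, of the same family, was lower at -1.25 (adjusted p = 4.33e-05) at 8 weeks and -0.90 (adjusted p = 7.12e-04) at 20 weeks.

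Macrophage markers had higher median sums with HFD at each time. The 15 macrophage markers in the table summed to 474 to 1931 CPM in CD and 1243 to 3456 in HFD mice at 8 weeks. The sums were 1089 to 3765 and 4897 to 9936 at 20 weeks, and 1285 to 13708 and 5616 to 16815 at 34 weeks. Of the 14 that were tested, 8, 10 and 12 were higher with HFD and 0, 1 and 0 lower. Cd68 was at 36.2 ± 23.1 CPM (SD, n = 6) in CD and 119.6 ± 63.2 (n = 6) in HFD mice at 8 weeks, 75.1 ± 63.3 and 605 ± 135 at 20 weeks, and 307 ± 214 (n = 8) and 969.8 ± 415 (n = 6) at 34 weeks. The summed level of the 12 adipocyte markers had lower medians in HFD mice, which were 63016 and 44184 CPM at 8 weeks, 63537 and 30810 at 20 weeks and 48041 and 27977 at 34 weeks in CD and HFD mice. Of the 12, 1, 1 and 0 were called higher and 2, 9 and 10 lower. Lep, the leptin gene, was higher by 2.18 at 8 and 2.90 at 20 weeks and not called at 34 weeks, and Cfd (adipsin), an adipocyte protease, lower at -2.76, -4.03 and -2.70. Markers of endothelial cells (8 genes), progenitors (8) and mural cells (7) also had higher median sums in HFD than in CD mice at each time. Their sums were below those of the 15 macrophage markers, but lists of unlike length are not comparable by sums. At the 3 times 8, 6 and 6 of 8 endothelial markers tested were called higher with HFD. The same held for 4, 7 and 3 of 7 progenitor markers and 6, 5 and 3 of 7 mural markers, and 0 were called lower. With the macrophage score of each mouse, the mean log2(CPM + 1) of the markers, as a covariate, Fos stayed higher in HFD mice by 1.09 at 8 weeks and 1.02 at 20 weeks, and Fosb, Jund, Ier3 and Atf3 kept their 8 week calls. At 8 weeks Junb (0.22, adjusted p = 0.361) and Ier2 (0.62, adjusted p = 0.0701) lost theirs. Junb (0.51, adjusted p = 0.0543), Ier2 (0.52, adjusted p = 0.182) and Jund (adjusted p = 0.0839) lost their 20 week calls while Atf3 gained one, and none of the 10 was called at 34 weeks. Since the score itself differed between the diets, this fit also removes diet differences that run with it.

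Within groups, the relation of the 10 genes with 3 scores, for macrophage markers, heat shock genes and adipocyte markers, was tested in 30 pairs over 38 mice, with permutations within groups and adjustment over the 30. The macrophage score rose with Junb (Pearson r = 0.60, permutation p = 2.90e-04, adjusted p = 0.00870, Spearman rho = 0.59, permutation p = 5.50e-04). It also rose with Zfp36 (r = 0.54, permutation p = 0.00193, adjusted p = 0.0271, rho = 0.54, p = 0.00220) and with Fos (r = 0.45, permutation p = 0.00329, adjusted p = 0.0271, rho = 0.47, p = 0.00317). Without the 2 mice farthest from the median score r was 0.45, 0.40 and 0.45. The relations were not seen at 8 weeks, where r was 0.09, 0.11 and 0.14, against 0.78, 0.73 and 0.73 at 20 weeks and 0.82, 0.75 and 0.57 at 34 weeks. For Fosb, Jund and Ier3 r was 0.14, -0.05 and 0.32 and was not called. By time these too varied, from -0.45, -0.41 and 0.02 at 8 weeks to 0.56, 0.38 and 0.68 at 34 weeks, and for Atf3 from -0.45 to 0.89. Without CD 20 week replicate 3 or CD 34 week replicate 5 only 1 of the 30 pairs was called, and without HFD 34 week replicate 4 only 2. The adipocyte score was not called with any of the 10 genes over all mice, but its r differed in sign between times. At 8 weeks r was above 0 for all 10 genes, from 0.37 for Fos to 0.95 for Egr1, and at 34 weeks it was below 0 for 9 of 10, down to -0.90 for Junb and -0.89 for Atf3. The difference between times was not tested.

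The heat shock genes encode chaperones that are induced by heat and other cell stress. Their summed level overlapped between the diets at every time. In CD and HFD mice it was 5293 to 6516 and 4995 to 6578 CPM at 8 weeks, 4728 to 5782 and 4990 to 6340 at 20 weeks, and 3702 to 5245 and 4656 to 5587 at 34 weeks. Of 16 genes tested, 3, 5 and 2 were higher and 2, 3 and 2 lower with HFD. At 34 against 8 weeks 10 of 16 were lower and 1 higher in CD mice, and 9 lower and 0 higher in HFD mice. Between these times 4 of the 10 genes were higher and 3 lower in CD mice, and 3 higher and 1 lower in HFD mice. Of all genes 64.7% and 52.5% were called in either direction in CD and HFD mice. Hspa1b, an inducible HSP70 gene, fell by 2.07 (adjusted p = 2.71e-04, limma) in CD and fell by 2.26 (adjusted p = 3.35e-04) in HFD mice. Hspa1b and Hspa1a are near-identical copies, so the split of reads between them is uncertain. Of the 10 genes only Atf3 was called with the heat shock score (r = 0.49, permutation p = 0.00362, adjusted p = 0.0271), and by Spearman's rho it was not (rho = 0.42, permutation p = 0.0168, adjusted p = 0.126). Its r was 0.43 without the 2 farthest mice and 0.23, 0.64 and 0.74 at 8, 20 and 34 weeks. With the score as a covariate 7, 7 and 1 of the 10 genes were called between the diets at 8, 20 and 34 weeks. The methods give the same digestion for all mice, no undigested fat was analysed here, and the part of the isolation in the levels of these genes was not tested.

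**Figure D5:**
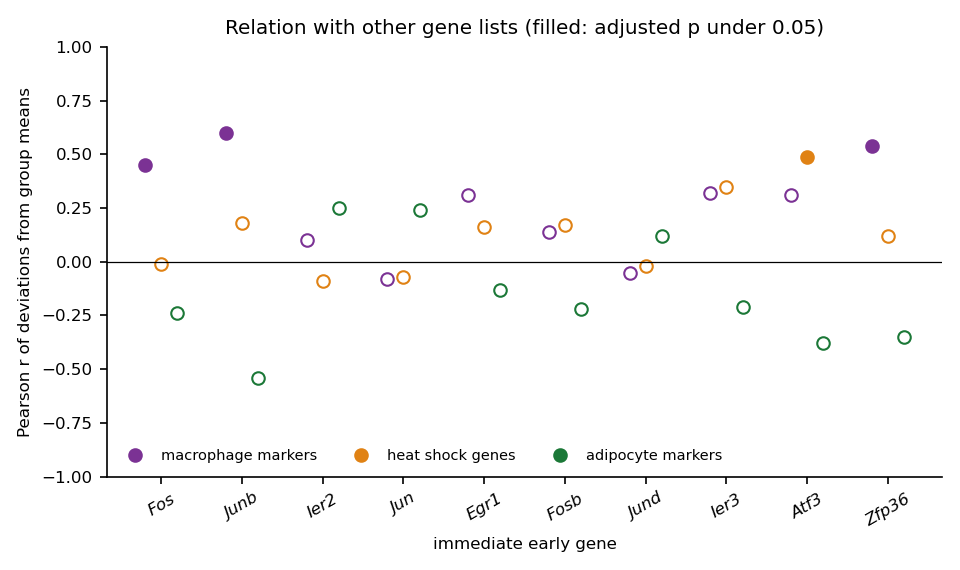
Pearson r over 38 mice between each immediate early gene (x axis) and the scores of macrophage markers (purple), heat shock genes (orange) and adipocyte markers (green), with group means removed, where filled points have a permutation p adjusted over 30 pairs under 0.05. The filled points are Fos, Junb and Zfp36 with macrophage markers (0.45, 0.60 and 0.54) and Atf3 with heat shock genes (0.49).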

How the data were processed

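RNA-seq of isolated perigonadal adipocytes from 38 mice was analysed. The CPM values were deposited by the authors, who, per their methods, aligned reads to mm10 with STAR, counted them per gene (all exons joined, GENCODE vM2) with featureCounts, discarded genes without an Entrez identifier and normalized with edgeR's TMM. The submitters' processing notes name STAR 2.5 and 2.5.2b and Subread 1.5.1. Each column sums to 1000000 and 100.0% of values are whole reads within 0.1 reads, so no TMM factor is visible, and the whole reads were used in the edgeR and DESeq2 alternatives. Whether counting used strand is not given in the sources used here. Counting precision (9275711 to 15480388 reads per mouse) covers counting error only.

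Genes with a mean log2(CPM + 1) above 2.0 (10343) were fitted over all 6 groups with limma 3.58.1 in R 4.3.3 (trended empirical Bayes, 32 residual degrees of freedom, two-sided), and p-values were adjusted by Benjamini-Hochberg over the genes tested, with a threshold of 0.05. Diet was compared at each time, with the differences between times as interactions, and times were compared within each diet. Relations used 100000 permutations within groups, with scipy 1.17.1 for exact tests. The fits were tested on simulated data. The alternatives were pseudocounts of 0.25 and 4, no filter and a filter at 4.0, TMM and median-of-ratios scaling, edgeR 4.0.16, DESeq2 1.42.0, separate fits per time, array weights, 2 covariates, mouse number as a block, and each mouse left out.

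The 10 genes, the other gene lists and the tests were chosen with earlier results of these data known. All 10 genes are named. Of the other lists, up to 3 called genes with the largest change per diet comparison may be named, and of cell type markers the levels of Cd68, Csf1r, Adipoq and Plin1. The 10 genes most like the members are named by their r. Values of Btg2, Nr4a1, Hspa1b, Cd3e, and of Elk1, Elk4, Dusp4 and Lep at single times, were chosen after they were seen. Adgre1 was not analysed here. A gene of the other lists is counted but not reported here by name. Gene positions and lengths are from GENCODE M21 and promoters from RefSeq, both on GRCm38.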

Additional observations from a re-analysis of the deposited data

Results flagged for a closer look

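Among 60 groups of a gene tested for a mouse far from the others by Dixon's ratio, 3 were flagged, about the 1 in 20 that chance gives. These were Jund in HFD replicate 4 at 34 weeks (507 CPM, gap over range 0.725, n = 6), Ier3 in CD replicate 1 at 8 weeks (122 CPM, 0.666, n = 6) and Zfp36 in CD replicate 3 at 20 weeks (805 CPM, 0.732, n = 6). The diet difference itself changed with time, by limma's interaction term, in Fos (34 against 20 weeks -1.45, 34 against 8 weeks -1.35), in Ier2 (-1.30 and -1.35) and in Atf3 (34 against 8 weeks 1.11). The adjusted p-values were 0.00850 and 0.00475, 0.0129 and 0.00321, and 0.0229.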

How the results depend on the processing

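None of the 42 called results of the 10 genes turned direction in 1596 fits without 1 mouse or in 534 other alternatives. The call was lost in 77 of the former and 58 of the latter, and 19 of the 42 kept it throughout. The macrophage covariate ended most calls (17), followed by TMM scaling, no filter and the heat shock covariate (6 each). The cause was not tested. The number of genes called moved by over 1.5 times as follows. HFD against CD at 34 weeks (2) gave 1 with no filter, 0 with the macrophage covariate and 1 with the heat shock covariate. Array weights gave 1 for the diet difference at 20 against 8 weeks (main value 0), 5 at 34 against 20 weeks (2), 3 for CD 20 against 8 weeks (0), 5 for HFD 20 against 8 weeks (1) and 4 for HFD 34 against 20 weeks (1). CD 20 against 8 weeks gave 2 with the macrophage covariate. HFD 20 against 8 weeks gave 0 with no filter, TMM scaling, edgeR or DESeq2 and 2 with the heat shock covariate, and HFD 34 against 8 weeks (4) gave 0 with the macrophage covariate. Without 1 mouse the diet counts ran from 4 to 7, 5 to 6 and 1 to 3 at 8, 20 and 34 weeks. The diet differences ran from 0 to 0 (20 against 8 weeks), 2 to 3 (34 against 20) and 2 to 4 (34 against 8). The CD comparisons ran from 0 to 1 (20 against 8), 8 to 10 (34 against 20) and 6 to 8 (34 against 8), the HFD comparisons from 0 to 2, 1 to 1 and 3 to 5, and the called relations from 1 to 5 of 30.

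The labels state no pairing by mouse number. Deviations of mice with the same number had a median r of -0.07 (-0.68 to 0.55, 90 pairs), beside 0.00 for other numbers (510 pairs). Whether mice of the same number shared their handling was not tested. With mouse number as a replicate block the counts were 6, 6 and 2 for HFD against CD at 8, 20 and 34 weeks, with 3 calls lost, of which that of Junb brought HFD 20 against 8 weeks to 0. Of 120 group levels under both other scalings 2 moved by over 1 SD, both of Fosb in CD mice at 20 weeks.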
